A study of Mus musculus with 6 samples.

Results

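The genes described here are those of glycolysis and of the entry of its product, pyruvate, into mitochondria. They were 30 named genes, chosen by symbol and ordered by pathway step, and each matched 1 of the 25124 gene models in the count table. All 30 passed the filter on low counts, as did 14685 models in all. Bulk retina of C57BL/6J mice aged 4 months was studied, with 3 wild-type samples and 3 of the genotype Elovl2C234W (C234W below), a substitution in an enzyme that lengthens polyunsaturated fatty acids. Poly-A RNA of each was sequenced. The labels give no treatment, do not say whether the animals carry 1 or both altered alleles, and do not say whether tissue was pooled.

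Glycolysis splits glucose into pyruvate in the cytosol. In most neurons that pyruvate enters mitochondria through a carrier in the inner membrane and is oxidised by the pyruvate dehydrogenase complex. Photoreceptors are known for turning much of their glucose into lactate even with oxygen present, and for passing lactate to neighbouring cells.

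Wild-type libraries are called WT1A, WT2A and WT2B, and C234W libraries FS3A, FS3B and FS5A. The prefix FS is not explained in the labels, and the FS libraries were assigned to C234W by elimination: the header's command lists 3 inputs starting with WT and 3 with C234W. WT2A and WT2B share a number in their names, as do FS3A and FS3B, and the labels do not tie libraries to animals. The tests therefore measure spread among 6 samples that may be technical in part. Values listed per library below follow the order WT1A, WT2A, WT2B and FS3A, FS3B, FS5A. Between 14184093 and 19298613 counts per library fell in genes. Elovl2 RNA was at 141.9, 138.3 and 135.9 CPM in wild type and at 81.95, 90.11 and 116.3 CPM in C234W (edgeR adjusted p = 0.101), which does not check the labels, since the substitution alters the protein. Defining rod genes were abundant in every library: the summed level of 10 rod markers ran from 99910 to 157000 CPM (counts scaled to library size) in wild type and from 66790 to 88460 in C234W. WT1A stood apart from the other wild-type libraries. It held the highest level of 9 of 10 rod markers. The summed level of 10 pigment epithelium markers, all detected and 5 of them highest in WT1A, was 524.6 CPM there, against 139.6 in WT2A, 66.65 in WT2B and 81.24 to 126.5 in C234W.

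Of the 30 members, 1 passed a Benjamini-Hochberg adjusted p of 0.05 over all genes (edgeR quasi-likelihood test): the mitochondrial pyruvate carrier subunit Mpc2, which fell in C234W retinas. Its adjusted p of 0.0484 was close to the threshold, and the number of members that passed depended on the test and on 1 library, with 3 in DESeq2 and 10 in edgeR without WT1A. Among all genes tested, 1.46% of 14685 passed in either direction, 0.184% higher and 1.28% lower. At an unadjusted p under 0.05, 2 members were higher and 6 lower, 8 of 30, and the share of all genes was 25.4% (11.9% higher and 13.5% lower). The 3 that DESeq2 called were Pfkfb3, higher, and Pgam1 and Mpc2, lower, where it called 12.7% of all genes. The groups did not overlap for 3 members, Mpc2, Pgam1 and Pdk3, all lower in C234W, against 29.1% of all genes in either direction and 16.4% lower. The members' median log2 fold change was -0.19, with 10 members above 0 and 20 below, beside a median of 0.02 over all genes tested. Scaled to total counts the median over all genes was 0.21 and that of the members was -0.002, with 15 above 0 and 15 below; Pfkl, Pfkm, Aldoc, Ldha and Pdhb, which are below 0 with the main scaling, were then above 0. Levels are in CPM scaled by the trimmed mean of M values (TMM), and a positive log2 fold change means a higher level in C234W.

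**Figure D1:**
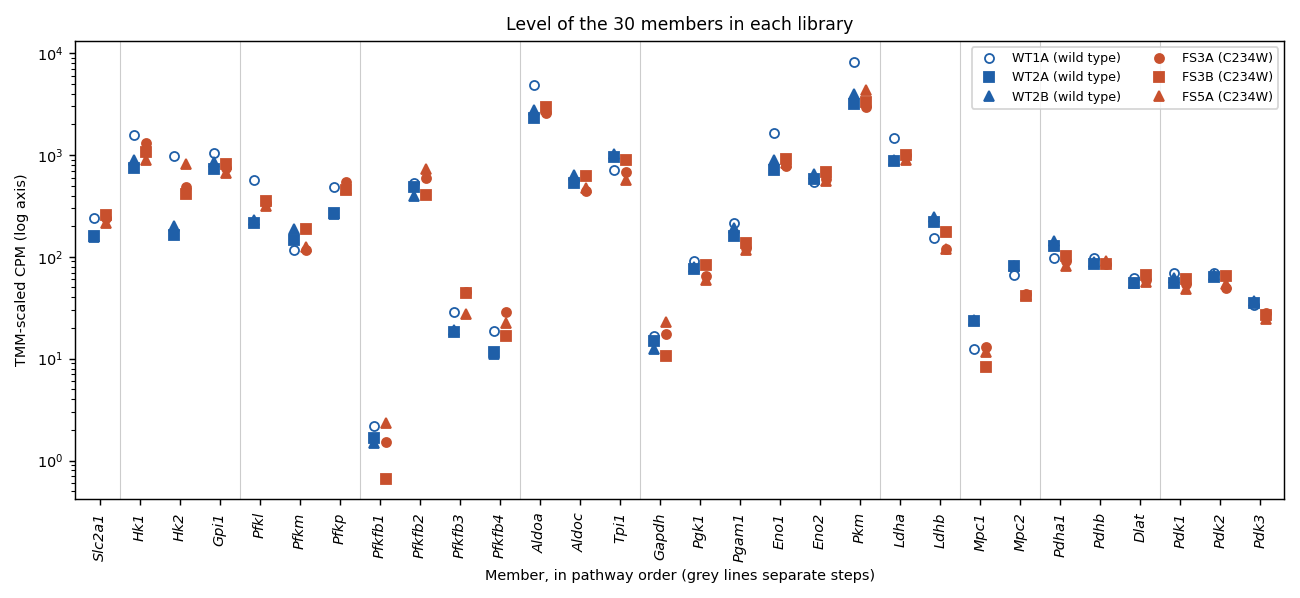
TMM-scaled CPM of each of the 30 members (log axis) in the 3 wild-type libraries (blue) and the 3 C234W libraries (red), in pathway order. WT1A, the open circle, lies above the other wild-type libraries for many members, and Mpc2 is lower in all 3 C234W libraries.

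WT1A weighed on the members unevenly. It held the highest level of 13 of the 30, and was over 1.5 times the mean of WT2A and WT2B for 11. The ratio was 5.32 for Hk2, 2.53 for Pfkl, 2.31 for Pkm, 2.05 for Eno1 and 1.93 for Aldoa. It was 0.521 for Mpc1 and 0.654 for Ldhb. Counts of the 30 members made up 2.14% of those in genes in WT1A, while the remaining 5 libraries ranged from 1.3 to 1.67%. Leaving WT1A out keeps WT2A and WT2B as the only wild-type libraries. They share a number and were the most alike pair, with a chi-square of 9.97 per degree of freedom. The next pair was FS3A and FS5A, at 30.6. FS3A and FS3B, which also share a number, were less alike, at 47.6. Because WT2A and WT2B may come from 1 animal, wild-type spread in the fit without WT1A may be technical. Every p-value without WT1A carries this limit. Without WT1A, 10 members passed in edgeR, 6 higher and 4 lower, while 18.5% of all genes passed (9.13% higher and 9.39% lower). The 6 were Slc2a1, Hk2, Pfkl, Pfkp, Pfkfb3 and Pfkfb4. In the same steps Hk1, Gpi1, Pfkm, Pfkfb1 and Pfkfb2 did not pass, and Gpi1 (-0.08) and Pfkm (-0.23) had log2 fold changes below 0. The 4 were Ldhb, Mpc1, Mpc2 and Pdha1, while Ldha (0.16) and Dlat (0.14) in their steps were above 0. Transcript length moved with these calls: the 6 are counted over 2560 to 5491 bases and the 4 over 799 to 2842. The trend on length was removed with 6 libraries only, where Mpc2 alone of the 10 passed in edgeR before the removal. After it 0 of all 14685 genes tested passed. With 6 libraries the removal moved Hk2 from 0.36 to 0.15 and Pfkl from -0.003 to -0.14. The part of length in the calls made without WT1A was therefore not tested. With 6 libraries 1 listed cell type marker passed in edgeR, the cone gene Pde6h (log2 fold change -1.32, adjusted p = 0.0484). No bipolar, erythrocyte or rod marker did. Summed levels of some lists still lay apart between the genotypes. The summed level of 8 bipolar cell markers was 766.6 to 953.8 CPM in wild type and 1126 to 1221 in C234W, with 3 called higher without WT1A. That of 7 erythrocyte markers, 6 of them tested with 6 libraries, was 116.8 to 221.6 CPM in wild type and 58.48 to 80.48 in C234W. Without WT1A 3 were called lower, Hbb-b1, Hbb-bs and Hbb-bt. Hbb-b1 and Hbb-bs overlap on chromosome 7 and had nearly the same counts, as did Hba-a1 and Hba-a2 on chromosome 11. The sum may therefore hold the same tags more than once, and the 3 calls are not independent. In that fit 3 of the 10 rod markers were also called lower. In the same fit 3 of 7 ganglion, 1 of 10 Muller glia, 1 of 7 amacrine and 2 of 7 skeletal muscle markers were called lower. Of the 7 muscle markers 4 were tested with 6 libraries. The 2 called were Acta1, low at 1.204 to 4.12 CPM, and Pvalb, at 20.79 to 50.17 CPM. Of 8 cone markers 2 were called higher and 2 lower, and 2 of 8 endothelial markers were called higher. No marker of these lists was at 0 in all libraries. The part of these cells' RNA, and of pigment epithelium, in the members' differences was not tested.

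**Figure D2:**
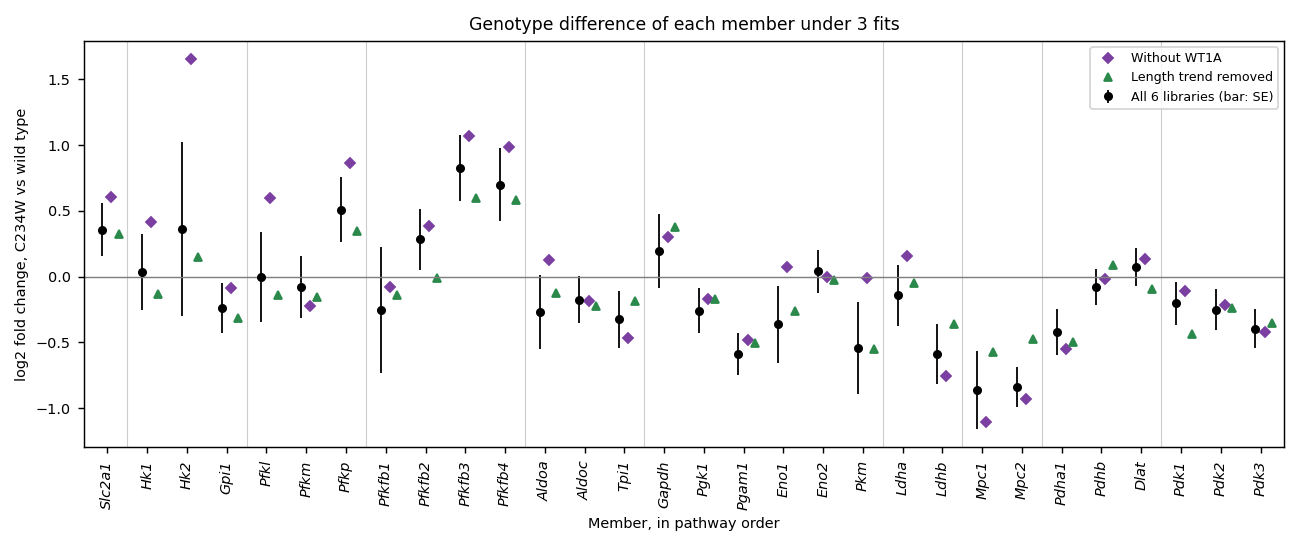
Log2 fold change of each member between genotypes (above 0 is higher in C234W) with all 6 libraries (black, bars are SE), without WT1A (purple) and with the trend on transcript length removed (green). Without WT1A the value of Hk2 moved from 0.36 to 1.65, whereas that of Mpc2 moved from -0.84 to -0.93.

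The bases before the start of 4 members are shown because these genes lie at both ends of the pattern: Mpc1 and Mpc2, the carrier subunits, had the lowest log2 fold changes of the 30 members, and Pfkfb3 and Hk2 had the highest with 6 libraries and without WT1A, respectively. Each run holds the 250 bases before the start site used in the count table, from RefSeq on GRCm38.p6. Capitals mark ACGTG and GCGTG on either strand, the core letters of the site bound by hypoxia-inducible factors, which are known to drive many glycolysis genes. ACGTG is also part of the E-box CACGTG.
Mpc2, chr1:165461010-165461259, plus strand: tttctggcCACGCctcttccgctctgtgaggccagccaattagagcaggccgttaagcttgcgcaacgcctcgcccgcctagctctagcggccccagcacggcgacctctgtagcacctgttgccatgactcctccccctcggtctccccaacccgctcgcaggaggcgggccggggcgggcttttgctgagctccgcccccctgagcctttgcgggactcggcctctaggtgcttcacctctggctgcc
Mpc1, chr17:8283537-8283786, plus strand: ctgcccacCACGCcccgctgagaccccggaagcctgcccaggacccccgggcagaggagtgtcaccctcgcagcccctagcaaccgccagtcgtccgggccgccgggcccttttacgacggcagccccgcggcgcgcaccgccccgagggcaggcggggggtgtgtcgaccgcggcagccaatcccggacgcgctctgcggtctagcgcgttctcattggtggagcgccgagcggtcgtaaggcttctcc
Pfkfb3, chr2:11502091-11502340, minus strand: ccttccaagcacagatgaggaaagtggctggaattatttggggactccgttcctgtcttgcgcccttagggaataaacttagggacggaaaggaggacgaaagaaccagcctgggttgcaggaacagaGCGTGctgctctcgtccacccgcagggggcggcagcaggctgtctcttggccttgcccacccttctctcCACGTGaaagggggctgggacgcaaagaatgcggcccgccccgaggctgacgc
Hk2, chr6:82774455-82774704, minus strand: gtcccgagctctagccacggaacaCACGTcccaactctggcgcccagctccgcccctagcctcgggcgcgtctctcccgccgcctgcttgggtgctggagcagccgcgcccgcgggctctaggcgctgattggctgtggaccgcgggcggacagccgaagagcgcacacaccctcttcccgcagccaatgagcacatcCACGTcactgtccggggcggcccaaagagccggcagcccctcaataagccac
Mpc2 and Mpc1 each had 1 GCGTG and 0 ACGTG. Pfkfb3 had 2 matches to ACGTG, which overlap in 1 CACGTG, and 1 to GCGTG, and Hk2 had 2 to ACGTG and 0 to GCGTG. Of the 30 members, 11 had ACGTG and 20 had GCGTG in the window nearest the start used, 24 having either. Among all 32851 windows of the same length, 16.6% had ACGTG, 28.2% GCGTG and 38.6% either. The members' windows were richer in G and C, with a median of 62.6% against 52.4%. A match is a run of letters, not a bound site. The 4 genes shown do not stand for the rest. Of the 6 members higher without WT1A, Slc2a1, Hk2 and Pfkfb3 had ACGTG in this window, and Pfkl, Pfkp and Pfkfb4 did not. The 4 lower in that fit, Ldhb, Mpc1, Mpc2 and Pdha1, did not, whereas Pgam1 and Pdk3, lower in every C234W library, had 1 each. A link between these letters and the fold changes was not tested.

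Slc2a1, the main glucose transporter of the blood-retina barrier, photoreceptors and glia, was measured at 243.3, 159.6 and 155.1 CPM in wild type and at 242, 257.2 and 215.6 CPM in C234W. WT1A lay within the C234W range and the other wild-type libraries below it. The log2 fold change was 0.36 (SE 0.20, edgeR adjusted p = 0.292) and 0.60 without WT1A (adjusted p = 0.0297). The gene lies on chromosome 4 of mm10, from 119108745 to 119137329. Endothelial cells also carry this transporter, and the summed level of 8 endothelial markers, all of them detected, was 194.7 to 221.4 CPM in wild type and 271.3 to 327.9 in C234W. None of the 8 passed in edgeR with 6 libraries. Without WT1A, where Slc2a1 passed, 2 passed higher, Esam (log2 fold change 1.13, edgeR adjusted p = 0.0156) and Flt1 (0.70, adjusted p = 0.0212). DESeq2 with 6 libraries called 3, Pecam1 being the third. The list was not uniform. Without WT1A, Egfl7 was at -0.48 and Tek at -0.23 on the log2 scale, and the other endothelial markers were above 0. The part of endothelial RNA in the level of Slc2a1 was not tested. In bulk tissue, fewer cells of a type and less RNA per cell cannot be told apart.

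Hexokinases trap glucose in the cell by adding a phosphate. Hk2, the isozyme linked with photoreceptors and growth, was the most variable member among wild-type libraries, at 970.7 CPM in WT1A, 162.3 in WT2A and 202.8 in WT2B. The C234W libraries held 483.5, 415.1 and 818.2 CPM in FS3A, FS3B and FS5A, all above WT2A and WT2B and all below WT1A. The log2 fold change was 0.36 (SE 0.66, edgeR adjusted p = 0.769) with 6 libraries, 1.65 without WT1A (adjusted p = 0.0159) and -0.03 without WT2A. Hk1, the general brain isozyme, had 1065 ± 431 CPM in wild type and 1092 ± 216 in C234W (SD, n = 3 each). Gpi1, which turns glucose phosphate into fructose phosphate, was at 1051, 720.4 and 862.4 CPM in wild type and at 744.5, 820.3 and 667.9 in C234W. The groups overlapped (log2 fold change -0.24, SE 0.19, edgeR adjusted p = 0.453).

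Phosphofructokinase commits the sugar to glycolysis and has 3 subunit genes. Pfkp, the platelet-type subunit, was at 487.9, 269.7 and 264.7 CPM in wild type and at 541.8, 449.7 and 463.7 CPM in C234W. WT2A and WT2B lay below every C234W library, and WT1A within their range (log2 fold change 0.51, SE 0.25, edgeR adjusted p = 0.234, and 0.87 with adjusted p = 0.0143 without WT1A). Pfkl, the liver-type subunit, showed the same WT1A pattern more strongly, at 565.7 CPM there against 214.5 in WT2A, 232.2 in WT2B and 318 to 354.5 in C234W. Its log2 fold change was -0.003 with 6 libraries and 0.60 without WT1A (adjusted p = 0.0288). Pfkm, the muscle-type subunit, was at 116.8, 145.9 and 188.6 CPM in wild type and at 115.8, 187.4 and 123.6 in C234W, with overlapping groups (edgeR adjusted p = 0.862).

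The Pfkfb genes encode enzymes that make and remove the sugar phosphate that activates phosphofructokinase. Pfkfb3, the form with the strongest synthetic activity, was at 28.56, 18.46 and 18.91 CPM in wild type and at 44.95, 44.2 and 27.74 CPM in C234W. Only FS5A and WT1A overlapped. The log2 fold change of 0.83 (SE 0.25) did not pass in edgeR (adjusted p = 0.0958), passed in DESeq2 (adjusted p = 0.0256), and was 0.60 (adjusted p = 0.208) with the trend on transcript length removed. Pfkfb4, a form induced by low oxygen in many tissues, was at 18.86, 11.73 and 11.11 CPM in wild type and at 28.47, 16.84 and 22.44 CPM in C234W (log2 fold change 0.70, SE 0.28, edgeR adjusted p = 0.163). Here WT1A exceeded FS3B and no other C234W library. Without WT1A, Pfkfb3 and Pfkfb4 passed at 1.07 and 0.99 on the log2 scale (adjusted p = 0.0246 and 0.0356). Pfkfb2 was at 472.4 ± 68.8 CPM in wild type and 575.5 ± 163 in C234W (SD, n = 3 each), and Pfkfb1, the liver form, was low at 0.664 to 2.317 CPM.

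Aldolase cleaves the sugar, and triose isomerase makes its products interchangeable. Tpi1, the isomerase, was at 706.5, 958.3 and 1016 CPM in wild type and at 685.8, 883.6 and 569.9 CPM in C234W, so WT1A lay among the C234W libraries (log2 fold change -0.33, SE 0.22, edgeR adjusted p = 0.375). Aldoc, the brain aldolase, was at 560, 530.4 and 639 CPM in wild type and at 444.7, 617.3 and 470.4 CPM in C234W (adjusted p = 0.572). Aldoa, the muscle-type aldolase, ran from 2326 to 4916 CPM in wild type and from 2565 to 2927 in C234W. The groups overlapped for both aldolases.

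From triose phosphate to pyruvate, Pgam1, the phosphoglycerate mutase, came closest to the threshold. It was at 214.5, 160.2 and 192.9 CPM in wild type and at 122.2, 137.4 and 117.8 CPM in C234W. Every C234W library lay below every wild-type library. The log2 fold change was -0.59 (SE 0.16, edgeR adjusted p = 0.0776), DESeq2 called it (adjusted p = 0.0207), and it was -0.50 (adjusted p = 0.14) after the length trend was removed. Pkm, pyruvate kinase, was at 8261, 3163 and 3990 CPM in wild type and at 2937, 3341 and 4311 CPM in C234W. Its log2 fold change of -0.54 (SE 0.35, edgeR adjusted p = 0.358) became -0.01 without WT1A. For Eno1, the general enolase, the value moved from -0.36 to 0.075 when WT1A was left out, while the neuronal enolase Eno2 was at 590 ± 51.8 CPM in wild type and 607.6 ± 69.7 in C234W (SD, n = 3 each). Pgk1, phosphoglycerate kinase, had 82.4 ± 7.9 and 68.9 ± 11.9 CPM (SD, n = 3 each), and Gapdh, the dehydrogenase often used as a reference gene, had 14.84 ± 2.15 and 17.02 ± 6.17 CPM.

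Lactate dehydrogenase converts pyruvate and lactate into each other. Ldhb, whose subunit is known to favour lactate use, was at 152.9, 221.4 and 246.2 CPM in wild type and at 120.7, 174 and 118.1 CPM in C234W. WT2A and WT2B exceeded every C234W library, and WT1A did not (log2 fold change -0.59, SE 0.23, edgeR adjusted p = 0.156, and -0.76 with adjusted p = 0.0375 without WT1A). Ldha, whose subunit favours lactate formation, was at 1472, 865.3 and 883.9 CPM in wild type and at 1010, 1010 and 898.4 CPM in C234W (log2 fold change -0.14, SE 0.23, adjusted p = 0.734).

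The mitochondrial pyruvate carrier is built from the products of Mpc1 and Mpc2. Mpc2, on chromosome 1 of mm10 from 165461260 to 165481218, was at 65.75, 81.28 and 81.07 CPM in wild type and at 43.19, 41.64 and 42.43 CPM in C234W. The 3 C234W libraries were nearly equal and lay below every wild-type library. It fell from 76.03 ± 8.9 to 42.42 ± 0.776 CPM (SD, n = 3 each), a log2 fold change of -0.84 (SE 0.15, edgeR adjusted p = 0.0484). DESeq2 and limma-voom called it as well (adjusted p = 0.000295 and 0.0465). The call ended with each library left out except WT1A (adjusted p from 0.0868 to 0.237), and with WT1A left out adjusted p was 0.0124. Scaling by relative log expression (RLE), upper quartile or total count also ended it narrowly, with adjusted p from 0.0503 to 0.0598. Mpc1, on chromosome 17 from 8283787 to 8297667, was at 12.42, 23.52 and 24.13 CPM in wild type and at 13.14, 8.253 and 11.71 CPM in C234W. FS3A lay above WT1A, and the remaining C234W libraries below all wild-type libraries (log2 fold change -0.86, SE 0.30, edgeR adjusted p = 0.127). Transcript length moved with genotype over all genes: of 5 equal groups by length, the one with transcripts up to 1671 bases long had its median at -0.34 on the log2 scale, and the longest at 0.28. Mpc2 is counted over 799 bases and Mpc1 over 1009, the shortest of the 30 members. After removal of the trend, Mpc2 stood at -0.47 (edgeR adjusted p = 0.139) and Mpc1 at -0.57 (adjusted p = 0.286). In that fit 0 genes passed and 3014 had an unadjusted p under 0.05, and no other tool was run on it.

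The pyruvate dehydrogenase complex turns pyruvate into acetyl-CoA. Pdha1, its catalytic alpha subunit, was at 98.43, 129.1 and 142.7 CPM in wild type and at 91.64, 102.7 and 82.13 CPM in C234W. FS3B exceeded WT1A, and otherwise C234W libraries were lower (log2 fold change -0.42, SE 0.18, edgeR adjusted p = 0.183, and -0.55 with adjusted p = 0.0394 without WT1A). Pdhb, the beta subunit of the same enzyme, was at 98.03, 85.58 and 89.97 CPM in wild type and at 84.42, 84.42 and 90.11 CPM in C234W. Dlat, the acetyltransferase core, had 57.53 ± 3.9 CPM in wild type and 60.5 ± 5.31 in C234W (SD, n = 3 each). The groups of both overlapped.

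Pyruvate dehydrogenase kinases switch the complex off by phosphorylating its alpha subunit. Pdk3, on chromosome X, was at 33.34, 35.15 and 36.64 CPM in wild type and at 28.03, 27.13 and 24.75 CPM in C234W. The groups did not overlap, and WT1A lay close to the other wild-type libraries. The log2 fold change was -0.40 (SE 0.15, edgeR adjusted p = 0.155) and stayed between -0.43 and -0.35 with any 1 library left out. Pdk2 was at 69.54, 63.24 and 66.95 CPM in wild type and at 49.16, 64.88 and 53.65 CPM in C234W (log2 fold change -0.25, SE 0.16, adjusted p = 0.341). Pdk1 had 62.64 ± 7.3 CPM in wild type and 54.37 ± 6.35 in C234W (SD, n = 3 each), with overlapping groups.

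Within families, the share of each isozyme in counts per kilobase needs no scaling between libraries. Of 7 shares compared by a two-sided exact permutation test, for which 0.1 is the smallest p that 3 against 3 can give, 1 reached that value. Pfkp made up 38.6, 38.2 and 33.9% of phosphofructokinase in wild type, against 50.6, 41 and 47.2% in C234W (exact p = 0.1, adjusted p = 0.7 over the 7). All 3 C234W libraries lay above all 3 wild-type libraries, WT1A included. Ldhb made up 12.7, 26.3 and 28% of lactate dehydrogenase in wild type, against 14.3, 19.4 and 15.5% in C234W (exact p = 0.4). WT1A had the lowest Ldhb share of the 6 libraries. Hk2 made up 32, 14.1 and 14.6% of the hexokinase pair in wild type, against 21.7, 22.5 and 41.1% in C234W (exact p = 0.5). The shares of Pfkl, Pfkm, Aldoc and Eno2 had exact p of 1, 0.4, 0.9 and 0.8.

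**Figure D3:**
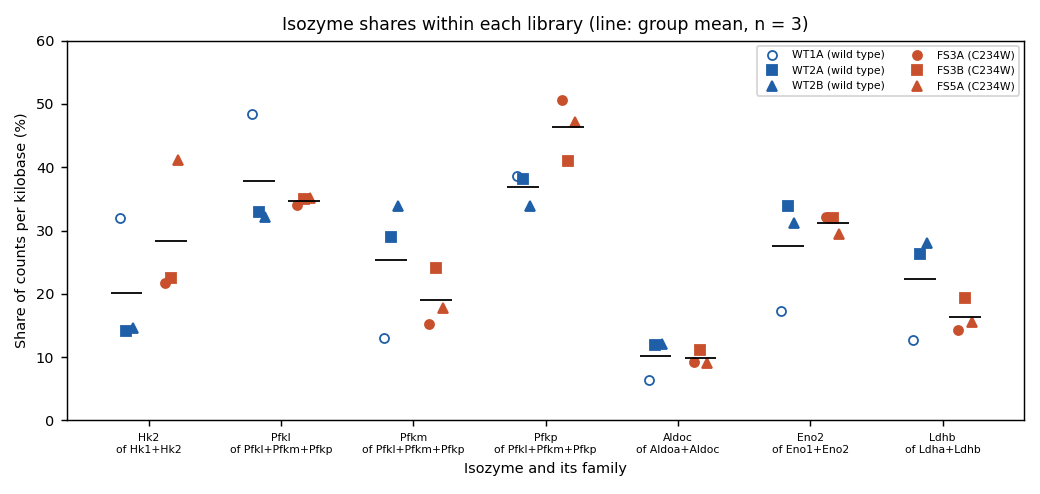
Share (%) of an isozyme in the counts per kilobase of its family, per library, with a line at each group mean (n = 3). The Pfkp shares of the 3 C234W libraries (41 to 50.6%) lie above those of wild type (33.9 to 38.6%), and WT1A lies apart from WT2A and WT2B for Hk2, Pfkl, Pfkm, Aldoc, Eno2 and Ldhb.

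Levels between members are given per kilobase. In wild type Pkm (2124 ± 1130 CPM per kilobase, SD, n = 3) and Aldoa (2118 ± 878) were the highest, and did not differ beyond their spread. Tpi1 (561.4 ± 103), Ldha (594.6 ± 191) and Eno1 (617.4 ± 282) followed, also within each other's spread. The carrier and the dehydrogenase were lower, at 95.16 ± 11.1 for Mpc2, 19.85 ± 6.53 for Mpc1, 43.42 ± 7.98 for Pdha1 and 14.31 ± 0.971 for Dlat. Gapdh stood at 10.5 ± 1.52, and Pfkfb1 was the lowest at 1.031 ± 0.216.

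Glycolysis genes have many processed pseudogenes, and the deposited counts hold uniquely mapped tags only. Each member's transcript was therefore split into all windows of 50 bases and searched in the annotated transcripts of other loci. For Gapdh 82.5% of windows recurred, in 218 other genes, 213 of them pseudogenes. The shares were 72.2% for Eno1, 68% for Pgk1, 41.5% for Pgam1, 30.5% for Pkm, 30.3% for Pdhb, 27% for Ldhb, 23.2% for Mpc1, 19.3% for Gpi1, 16.6% for Ldha and 13.5% for Aldoa. No window recurred for 15 members, which include Mpc2, Hk2, Slc2a1, Pfkp, Pfkfb3 and Pdk3. For Pfkfb3 the transcript searched had 2216 bases, against 5161 counted, and for Pfkfb2 it had 2849 against 7291. The absence of recurring windows thus covers only part of the sequence counted for Pfkfb2 and Pfkfb3. Over 10% recurred for 11 members. Windows of 100 bases were also searched, because the read length was not known; Gapdh had 78% and Pkm 6.82%. The absolute levels of Gapdh, Eno1, Pgk1 and Pgam1 are therefore uncertain, and so is their order among the members.

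**Figure D4:**
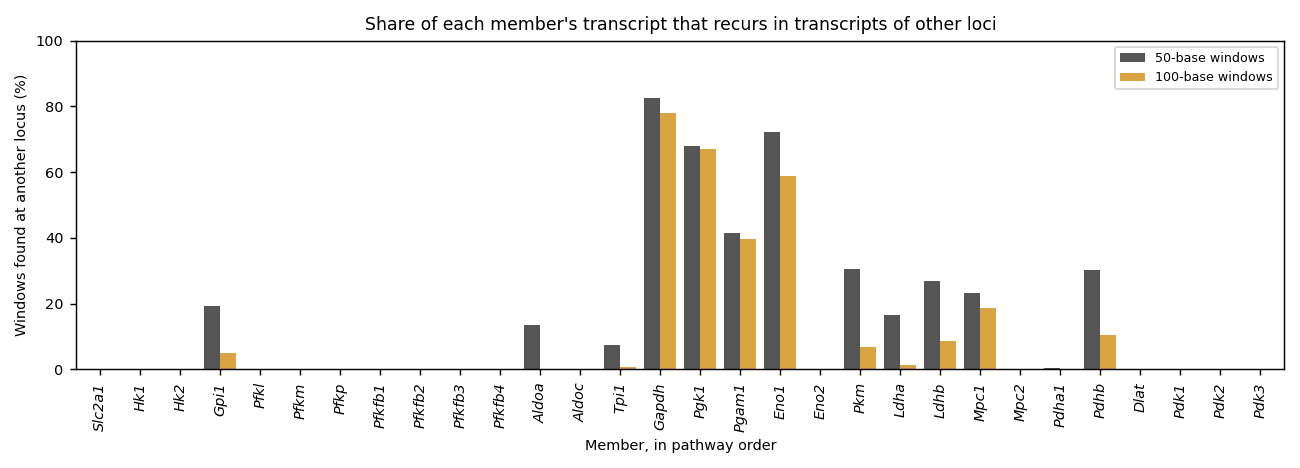
Percent of 50-base (grey) and 100-base (gold) windows of each member's transcript that also occur in annotated transcripts of other loci. For Pfkfb2 and Pfkfb3 the transcript searched was much shorter than the one counted. Gapdh, Eno1, Pgk1 and Pgam1 are the highest for 50-base windows, at 82.5, 72.2, 68 and 41.5%.

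Around these members, 81 related genes were listed, of which 66 were tested. In edgeR 1 rose, 0 fell and 65 did not pass, where 1.46% of all genes tested passed. At an unadjusted p under 0.05, 4 were higher and 9 lower, beside 11.9% and 13.5% of all genes. DESeq2 called 4, beside 12.7% of all genes. Without WT1A, edgeR called 5 higher (Prkaa1, Myc, Hkdc1, Slc2a8 and Slc16a3) and 2 lower (Sdhd and Vhl), beside 9.13% and 9.39% of all genes. Myc was at 7.439 CPM in WT1A, 0.4306 in WT2A, 0.1471 in WT2B and 2.073 to 4.325 in C234W. Its log2 fold change with 6 libraries was 0.135 (SE 1.095). The related genes' median log2 fold change was -0.01. The 1 that rose was Prkaa1, a catalytic subunit of the energy sensor AMP-activated kinase, at 29.49, 26.54 and 21.56 CPM in wild type and 62.96, 47.86 and 46.58 CPM in C234W. The groups did not overlap (log2 fold change 1.02, SE 0.19, edgeR adjusted p = 0.0484, and 0.82 with adjusted p = 0.103 after the length trend was removed). The call was lost with any 1 library left out except WT1A (adjusted p from 0.0868 to 0.237). Prkaa2, the other catalytic subunit, went the other way, at 62.01 ± 15.5 CPM in wild type and 45.96 ± 8.36 in C234W (SD, n = 3 each). Its groups overlapped and it did not pass (log2 fold change -0.433, SE 0.225, edgeR adjusted p = 0.257). Prkaa1 was 1 of 11 tested regulators, and Vhl, which marks hypoxia-inducible factors for destruction, was at 66.09 ± 13.5 CPM in wild type and 41.84 ± 4.83 in C234W (SD, n = 3 each), with groups that did not overlap. It did not pass in edgeR (adjusted p = 0.0882), whereas DESeq2 called it (adjusted p = 0.0338), as did edgeR without WT1A (adjusted p = 0.0155). DESeq2 called 2 of the regulators, Prkaa1 and Vhl. The factor gene Hif1a had a log2 fold change of -0.04.

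None of 16 tricarboxylic acid cycle genes passed in edgeR, and 12 had a log2 fold change below 0. At an unadjusted p under 0.05, 5 were lower, beside 13.5% of all genes lower and 25.4% in either direction. DESeq2 called 2, beside 12.7% of all genes. The list's median length was 1858.5 bases, and its median log2 fold change was -0.186, or -0.118 with the length trend removed. The smallest p was that of Sdhd, a membrane anchor of succinate dehydrogenase, at 65.22, 107.1 and 106.8 CPM in wild type and 45.22, 49.23 and 50.73 CPM in C234W. Its log2 fold change was -0.94 (SE 0.21, edgeR adjusted p = 0.056), and -0.715 (adjusted p = 0.12) with the length trend removed. Of 9 further glycolysis isozymes and regulators tested, 0 passed, with 2 at an unadjusted p under 0.05 and 0 in DESeq2; Tigar, which opposes phosphofructokinase activation, was lowest in p (log2 fold change -0.59, SE 0.20, adjusted p = 0.129). Of 5 other pyruvate dehydrogenase genes 0 passed, with 1 at an unadjusted p under 0.05 and 0 in DESeq2, and Pdpr, a regulatory subunit of the phosphatase that reactivates the complex, had 0.67 (SE 0.24, adjusted p = 0.138). Pdk4 did not pass the filter. Of 6 other glucose transporters 0 passed, with 1 at an unadjusted p under 0.05 and 0 in DESeq2, and all 6 had a log2 fold change above 0, that of Slc2a8 being 0.88 (SE 0.37, adjusted p = 0.182). Of 9 NADH shuttle genes and 3 of gluconeogenesis, 0 passed, with 1 and 1 at an unadjusted p under 0.05 (Got2, adjusted p = 0.195, and Pck2, adjusted p = 0.189) and 0 in DESeq2. Of 7 genes of lactate export 0 passed, with 0 at an unadjusted p under 0.05 and 0 in DESeq2. Without WT1A, 1 gene passed higher in each of 3 of these lists: the hexokinase relative Hkdc1 (log2 fold change 2.22, edgeR adjusted p = 0.0294), the transporter Slc2a8 (1.40, adjusted p = 0.0202) and the lactate transporter Slc16a3 (1.11, adjusted p = 0.0124). WT1A itself held 36.66 CPM of Slc16a3, above the 29.45 to 34.34 CPM of C234W, and lay within the C234W range for Hkdc1 and Slc2a8. With 6 libraries their edgeR adjusted p was 0.225 for Hkdc1, 0.182 for Slc2a8 and 0.356 for Slc16a3. The carrier chaperone Bsg was at 996.9 ± 162 CPM in wild type and 745.4 ± 90.1 in C234W (SD, n = 3 each, edgeR adjusted p = 0.199).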

How the data were processed

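Poly-A RNA of whole retina was sequenced in 6 libraries, 3 per genotype. Per the labels' protocols libraries were strand-specific TruSeq; STAR (2.7.8a) was the aligner and mm10 the genome, per the submitters' processing notes. Per the file headers HOMER's counter used exons, the minus strand and 1 transcript model a gene; only tags with a unique position were counted, per the series' design text. Per the file headers the deposited values are estimated counts, not normalized (some end in 0.5); they were rounded for the count tests. Of the tags in each library 65.8 to 74.4% were counted in genes. The smallest chi-square between 2 libraries, that of WT2A and WT2B, was 9.97 per degree of freedom. No library was treated as a duplicate, and 0 sample columns were left out.

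Genes were kept by filterByExpr and compared with the edgeR quasi-likelihood test (4.0.16, R 4.3.3) with TMM scaling, robust fits and genotype as the sole term. Benjamini-Hochberg adjustment ran over all genes tested. SE is the log2 fold change divided by the root of F. Scripts were tested on simulated data. Members and lists were chosen with earlier results of these data known. Values per library are given for members past the threshold and the 2 of smallest p in each step; other members are summarised or named after their values were seen. In each related list the gene of smallest p is named, and any that passed. Vhl, Hif1a, Pdk4, Myc, Hkdc1, Slc16a3 and Prkaa2 were chosen after their values were seen. So were the markers Esam, Flt1, Pecam1, Egfl7, Tek, Pde6h, Acta1 and Pvalb, and the globin genes named. Alternatives included scaling by RLE, upper quartile or total count, other filters, DESeq2 (1.42.0), limma-voom (3.58.1), a loess trend on transcript length removed per library (span 0.3), summed libraries of the same number, unrounded counts and each library left out. Transcript windows came from GENCODE M21 (28 of 30 members matched by RefSeq identifier).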

Additional observations from a re-analysis of the deposited data

How the results depend on the processing

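No paired analysis was possible because the columns carry no replicate number of the labels. The count of genes that passed, 215, became 0 with RLE, upper-quartile or total-count scaling, with the length trend removed or with libraries of the same number summed (3753, 3805, 4349, 3014 and 1793 at an unadjusted p under 0.05), 353 with no filter, 1754 in DESeq2 (239 in limma-voom), and 0 to 2775 with 1 library left out. The members that passed, 1, became 0 under the same 5 settings, 3 in DESeq2 and 0 to 10 with 1 library left out; the 10 came without WT1A, and 0 passed in edgeR without any other library, with 3 to 11 at an unadjusted p under 0.05. Members at an unadjusted p under 0.05, 8, became 2 with libraries summed and 3 to 12 with 1 left out. Their median, -0.19, was -0.002 with total-count scaling and -0.302 to -0.016 with 1 library left out. Mpc2 kept its sign in every setting run, and its adjusted p was 0.0503 with RLE, 0.0508 with upper-quartile and 0.0598 with total-count scaling and 0.379 with libraries summed.

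The signs of several members depended on the setting. With total-count scaling, Pfkl was 0.216, Pfkm 0.096, Aldoc 0.009, Ldha 0.06 and Pdhb 0.104. With the length trend removed, Hk1 was -0.135, Pfkfb2 -0.013, Eno2 -0.023, Pdhb 0.091 and Dlat -0.095. Pfkl was also 0.005 with RLE, 0.018 with upper-quartile scaling, 0.003 with no filter, 0.005 in DESeq2 and 0.142 in limma-voom, and Hk1 was -0.199 with libraries summed. With 1 library left out the ranges were -0.161 to 0.419 for Hk1, -0.034 to 1.654 for Hk2, -0.242 to 0.598 for Pfkl, -0.327 to 0.117 for Pfkm, -0.701 to 0.113 for Pfkfb1, -0.471 to 0.124 for Aldoa, -0.085 to 0.443 for Gapdh, -0.589 to 0.075 for Eno1, -0.054 to 0.115 for Eno2 and -0.272 to 0.159 for Ldha. The differences in share ranged, in percentage points, from -5.91 to 2.22 for Pfkl, -2.14 to 0.697 for Aldoc and -1.35 to 6.95 for Eno2, and Aldoc was 0.54 with libraries summed. The cause of these shifts was not tested. Depth limited Pfkfb1 most, with few counts per library.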
